A study of Homo sapiens with 4 samples.

Results

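Gene expression was compared between spheroids of the colon carcinoma lines HCT116 and DLD-1, the libraries of 2 of the 4 lines in the series. The members were taken by their labels, HCT116 and DLD-1, in the deposited gene and transcript tables. The other libraries are SW620, another colon cancer line, and HCEC-1CT, a line from non-cancerous colon, and they serve here only as points of reference. All 4 lines are labelled as wild type in genotype and epithelial in cell type. They were grown for 7 days as spheroids in low-attachment plates of 24 wells with 10% fetal bovine serum, and RNA was pooled from 2 plates. The labels name no treatment. Each line is a single established line with 1 library, so no spread between replicates can be given, no test was run, and every difference below is a difference between these 2 libraries. Where a pair of values is given, HCT116 stands first and DLD-1 second. Levels are in FPKM, fragment counts scaled to transcript length and to the mapped fragments of the library.

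HCT116 and DLD-1 are both mismatch-repair deficient, that is, they lack the system that recognises and removes replication errors, and DLD-1 is known for loss of its component MSH6. As background from general knowledge of these lines, and not from the labels, HCT116 has a stabilising mutation of beta-catenin, while DLD-1 has truncated APC. Colon epithelium is renewed from crypt cells held by WNT signalling, and its mature cells are absorptive colonocytes and mucus-secreting goblet cells, driven by transcription factors such as CDX2 and HNF4A.

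The epithelial label was met by both libraries. EPCAM, an adhesion molecule of epithelia, stood at 144 and 406 FPKM, the keratin KRT8 at 600.5 and 1856 FPKM and CDH1, which encodes E-cadherin, at 27.2 and 189 FPKM. Of the colonic markers checked, several were at or near 0 in HCT116 alone of the compared pair. GPA33, a surface antigen of intestinal cells, stood at 0.0278 and 18.8 FPKM and LGALS4, an intestinal galectin, at 0.0342 and 18.8 FPKM. Villin, VIL1, stood at 0.0919 and 8.06 FPKM and CDH17, an intestinal cadherin, at 0.0833 and 179 FPKM. CDX2 stood at 3.27 and 70.8 FPKM, and CDX1 was low in both lines, at 0 and 0.652 FPKM. The marker lists of other cell types were low in both. The 13 fibroblast and pericyte markers summed to 28.7 and 3.19 FPKM, most of the HCT116 sum from ACTA2 (14.4 and 1.30 FPKM) and COL1A1 (12.1 and 0.0213 FPKM), while COL1A2, FAP and POSTN were listed at 0 in both lines. The 12 leukocyte markers summed to 6.53 and 1.88 FPKM and the 9 endothelial markers to 3.59 and 3.23 FPKM. In HCEC-1CT, also labelled epithelial, EPCAM, CDH1 and KRT19 were listed at 0 and KRT8 stood at 3.10 FPKM. Its 13 fibroblast and pericyte markers summed to 1208 FPKM. The HCEC-1CT values below are therefore not read as those of colon epithelium.

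The depths were alike. Steps in the low values correspond to about 25.3 M fragments in HCT116 and 23.3 M in DLD-1, so 1 FPKM at a length of 2 kb comes to about 50.6 and 46.7 fragments. At least 1 FPKM was reached by 14418 genes in HCT116 and 14654 in DLD-1. Genes of the mitochondrial genome held 10.6% of the summed FPKM in HCT116 and 3.42% in DLD-1, and nuclear protein-coding genes 53.5% and 67.4%. An exact 0 in these tables can be a failed estimate. NNT, a mitochondrial proton pump, was listed at 0 in HCT116 and at 10 FPKM or more in the 3 other libraries, as were 4 more genes (TXNIP, CBR1, HIST1H1B and HIST1H1D). In DLD-1 the same held for 7 genes: the scramblase ANO6, the fatty acid elongase ELOVL5, COL6A2, STC2, FHL1, SLC17A9 and TCEA2. A value of 0 below therefore means that the gene is listed at 0, and no fold is given for it. None of the 31 housekeeping genes was listed at 0 in either line, and their median log2 ratio was 0.02, or -0.34 on the TPM scale.

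Across 16718 genes with at least 1 FPKM in either line, the log2 ratio of HCT116 over DLD-1, with a pseudocount of 1 added to both, had a median of -0.08 and an interquartile range of -0.83 to 0.71. Genes within 2-fold made up 61.6%. By a limit of 4-fold, 921 genes (5.51%) were higher in HCT116 and 843 (5.04%) higher in DLD-1. Of these, 794 and 646 code for protein. The 3880 genes of other types leaned to DLD-1, with a median of -0.37 and 127 against 197 past the limit. The balance depends on the scale. Rescaling both libraries to equal sums over all genes (the TPM scale) multiplies HCT116 by 0.773 and shifts its log2 FPKM by -0.37. The counts become 621 and 1112, with 35.8% of the calls higher in HCT116 against 52.2% on the scale as deposited. Scaling on the median ratio or on the nuclear protein-coding total instead gave 981 and 814, or 891 and 860. All values below are FPKM as deposited.

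**Figure D1:**
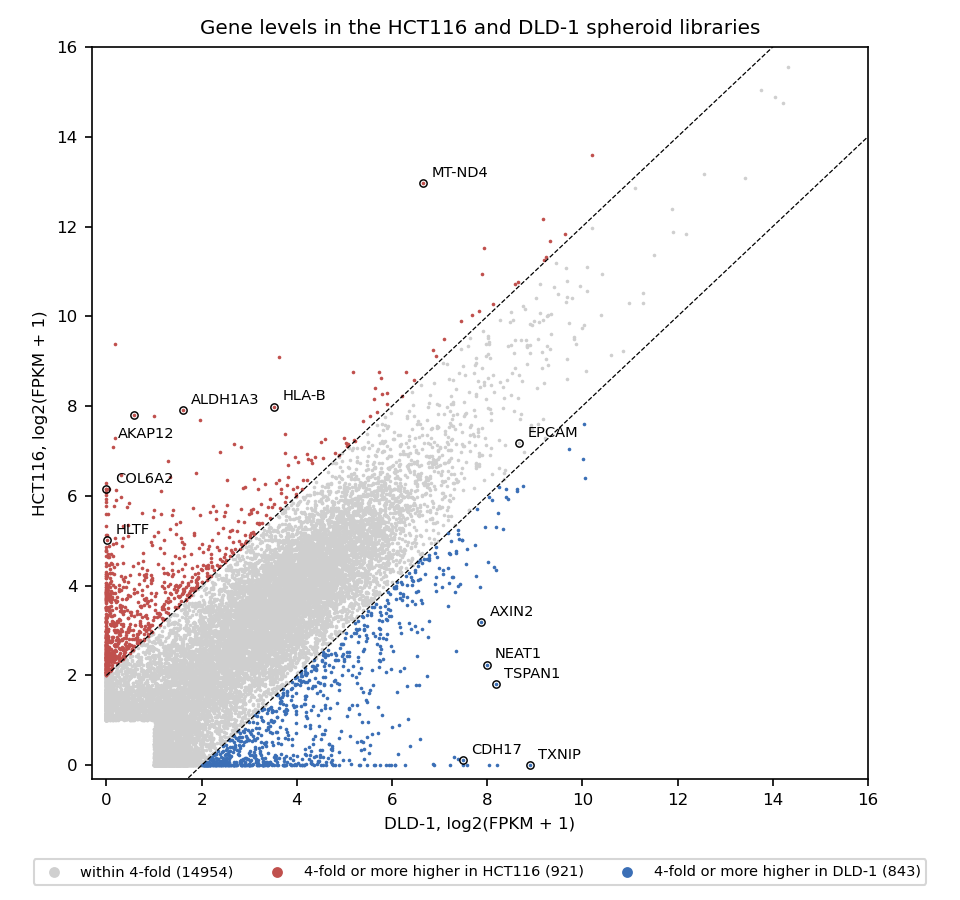
Level of each gene with at least 1 FPKM in either line, as log2(FPKM + 1), in DLD-1 (horizontal axis) and HCT116 (vertical axis); each point is 1 gene of 1 library per line and the dashed lines mark 4-fold. Red points are the 921 genes higher in HCT116 and blue points the 843 higher in DLD-1, and the circled genes are named in the text.

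Among the coding genes that lay farthest apart, those high in HCT116 included matrix, cytoskeletal and germline genes. AKAP12, a scaffold protein for protein kinase A and C (chromosome 6, 151239999 to 151358557 in hg38, ENSG00000131016), stood at 221 and 0.498 FPKM. NPW, the precursor of the peptide neuropeptide W (chromosome 16, 2009926 to 2020755), stood at 156 and 0.127 FPKM, and TMEM158, a membrane protein known to be induced by RAS (chromosome 3, 45224466 to 45226278), at 219.8 and 1.00 FPKM. ALDH1A3, which makes retinoic acid (chromosome 15, 100877714 to 100916626, ENSG00000184254), stood at 239 and 2.05 FPKM, a difference of 117-fold. The SW620 values of AKAP12 and ALDH1A3 were 129 and 68.5 FPKM, so that DLD-1 was the low line of the 3 carcinomas for both. The collagen VI chains COL6A1 (chromosome 21, 45981737 to 46005050) and COL6A2 (chromosome 21, 46098097 to 46132849) had levels of 68.8 and 0.149 FPKM and of 70.2 and 0 FPKM. FLNC, an actin cross-linker (chromosome 7, 128830377 to 128859274), stood at 70.1 and 0.0390 FPKM. GTSF1, a factor of the piRNA pathway in germ cells, stood at 77.7 and 0 FPKM, and MAGEB2, a cancer-testis antigen on chromosome X, at 66.8 and 0 FPKM. DKK1, a secreted WNT antagonist (chromosome 10, 52314296 to 52318042), stood at 63.9 and 0 FPKM. Further genes named by the same rule were ELOVL5 at 70.5 and 0 FPKM, KRTAP2-3, a keratin-associated protein, at 58.8 and 0.145 FPKM, and ADIRF, an adipogenesis regulator, at 62.2 and 0.231 FPKM.

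The genes high in DLD-1 included many that are known from gut epithelium. AGR2, a protein disulfide isomerase of mucus-producing cells (chromosome 7, 16791811 to 16833433, ENSG00000106541), stood at 0 and 191 FPKM. CDH17, the liver-intestine cadherin (chromosome 8, 94127171 to 94217303, ENSG00000079112), stood at 0.0833 and 179 FPKM, and PHGR1, a small protein of gut epithelium, at 0 and 178 FPKM. TFF3, the trefoil peptide of goblet cells (chromosome 21, 42311667 to 42315651), stood at 0 and 65.8 FPKM, S100P, a calcium-binding protein, at 0.102 and 167 FPKM, and the tetraspanin TSPAN1 at 2.52 and 288 FPKM and TSPAN8 at 0 and 65.7 FPKM. ASCL2, the transcription factor of crypt stem cells (chromosome 11, 2268495 to 2270952), stood at 0 and 117 FPKM. In HCT116 these were at or near 0 apart from TSPAN1. SW620 held 186, 184 and 33.3 FPKM of TFF3, S100P and TSPAN8, and 44.2 and 43.7 FPKM of TSPAN1 and ASCL2. CDH17, AGR2 and PHGR1 stood at 20.5, 9.42 and 1.80 FPKM in SW620. TXNIP, the thioredoxin-interacting protein (chromosome 1, 145992435 to 145996600), was listed at 0 and 476 FPKM, with 904 in SW620 and 95.1 in HCEC-1CT. PRR15L stood at 0.141 and 156 FPKM, the selenium-binding protein SELENBP1 at 0.0278 and 115 FPKM and the neutrophil chemokine CXCL5 at 0 and 76.2 FPKM. The linker histones HIST1H1B and HIST1H1D and the histone HIST1H3F completed the list, with 0 in HCT116 and 296, 149 and 262 FPKM in DLD-1.

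Of the genes that do not code for protein, NEAT1, the RNA scaffold of nuclear paraspeckles (chromosome 11, 65422774 to 65445540), stood at 3.73 and 253 FPKM, and the imprinted H19 (chromosome 11, 1995176 to 2001470) at 0.869 and 70.4 FPKM. IGFL2-AS1 was listed at 0 and 48.3 FPKM. Several others cannot be told from the genes they lie over. MIR1244-1 stood at 665 and 0.134 FPKM, but lies within PTMA, the prothymosin gene, at 671 and 262 FPKM. RPL32P29, at 88.0 and 0.242 FPKM, lies within RPS29, at 117 and 105 FPKM, and SNORA73A, at 0.495 and 95.9 FPKM, within RCC1 and SNHG3. The values of such short features say how fragments were shared out and are not read as levels of the small RNAs. Of the genes given with coordinates here and below, ALDH1A3, CDH17, FLNC, H19, HLA-B, HMGCS1, MSH6 and NEAT1 also overlap another annotated gene. Whether strand was used in counting is unknown, so fragments of overlapping genes may have been shared.

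Some coding genes were on in 1 line and near off in the other. With at least 10 FPKM in the higher line and under 0.1 in the lower, 101 coding genes were high in HCT116, 51 of them listed at 0 in DLD-1, and 69 were high in DLD-1, 39 of them listed at 0 in HCT116. SW620 had 1 FPKM or more of 52 of the 101 and of 39 of the 69. The promoters of the 2 sets differed in a feature that the choice did not use. RefSeq (GRCh38.p14) gives a single promoter window, 250 bases before to 50 after the start, for 10907 of the coding genes, and CG dinucleotides, the sites of DNA methylation in human cells, were counted in those 300 bases on 1 strand. The 44 matched genes on in HCT116 alone of the pair had a median of 27.5 CG, close to the 29 of the 2780 genes at 10 FPKM or more in both lines. The 29 matched genes on in DLD-1 alone of the pair had a median of 9. At least 15 CG were held by 39 of the 44 (88.6%), by 13 of the 29 (44.8%), and by 67.4% of all 10907 windows. Genes under 0.1 FPKM in both lines had a median of 5. DNA methylation was not measured in these libraries.

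Windows of both kinds are shown from genes that the results turn on, with each CG in capitals. HLTF (chr3:149086484-149086783, minus strand) and COL6A2 (chr21:46097862-46098161, plus strand) were on in HCT116 alone of the pair, with 27 and 36 CG. COL6A2 is 1 of the 7 genes listed at 0 in DLD-1 but high in the other libraries, a value that can be a failed estimate. ANO6, ELOVL5 and STC2 in the same set, and CBR1 in the DLD-1 set, share this limit. AGR2 (chr7:16804950-16805249, minus strand) and LGALS4 (chr19:38812896-38813195, minus strand) were on in DLD-1 alone of the pair, with 6 and 7 CG. Each is printed 5′ to 3′ on the strand of its gene.
HLTF: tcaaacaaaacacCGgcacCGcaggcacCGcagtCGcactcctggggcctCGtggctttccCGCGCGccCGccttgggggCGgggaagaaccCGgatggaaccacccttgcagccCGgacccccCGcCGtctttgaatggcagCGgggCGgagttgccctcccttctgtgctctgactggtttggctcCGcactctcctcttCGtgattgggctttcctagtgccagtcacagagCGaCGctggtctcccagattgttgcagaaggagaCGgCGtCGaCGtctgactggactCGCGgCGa
COL6A2: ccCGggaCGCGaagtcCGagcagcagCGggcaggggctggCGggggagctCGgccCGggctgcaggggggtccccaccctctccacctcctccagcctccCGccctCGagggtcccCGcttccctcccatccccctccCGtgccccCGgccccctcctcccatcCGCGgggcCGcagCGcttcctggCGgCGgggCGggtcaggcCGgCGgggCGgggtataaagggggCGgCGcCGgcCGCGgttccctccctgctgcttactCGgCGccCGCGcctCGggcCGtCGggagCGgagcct
AGR2: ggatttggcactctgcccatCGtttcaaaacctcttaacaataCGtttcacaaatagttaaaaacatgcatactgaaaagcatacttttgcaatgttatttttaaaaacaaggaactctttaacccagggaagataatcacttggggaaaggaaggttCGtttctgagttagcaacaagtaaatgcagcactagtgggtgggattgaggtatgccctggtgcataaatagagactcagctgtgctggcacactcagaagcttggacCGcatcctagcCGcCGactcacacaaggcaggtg
LGALS4: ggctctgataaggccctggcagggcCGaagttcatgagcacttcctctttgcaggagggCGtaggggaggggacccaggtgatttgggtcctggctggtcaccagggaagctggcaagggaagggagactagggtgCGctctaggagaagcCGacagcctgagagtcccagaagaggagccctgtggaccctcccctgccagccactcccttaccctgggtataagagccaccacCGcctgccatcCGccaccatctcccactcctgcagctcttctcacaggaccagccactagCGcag

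**Figure D2:**
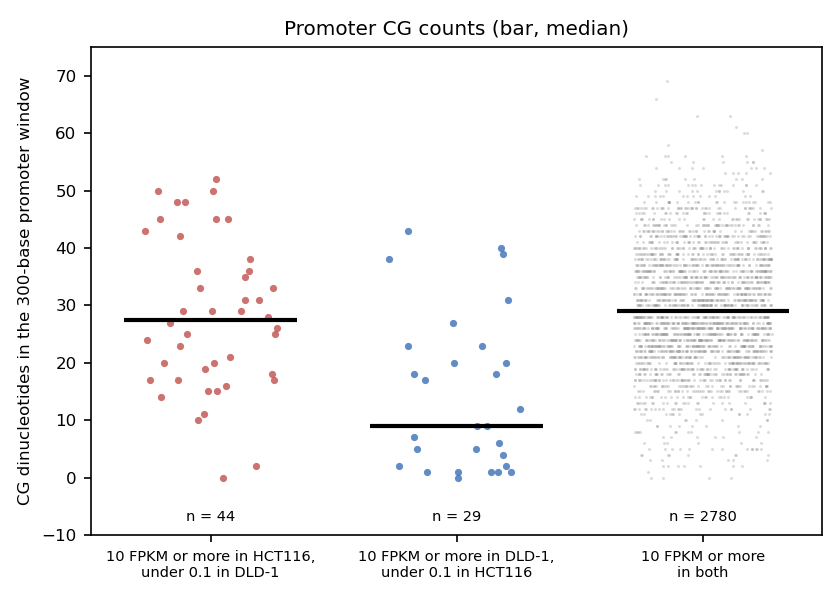
Number of CG dinucleotides in the 300-base promoter window (vertical axis) for coding genes. Groups are genes on in HCT116 alone of the pair (n = 44), in DLD-1 alone of the pair (n = 29) and in both (n = 2780). Each point is 1 gene and the bars are medians, 27.5, 9 and 29. Of the genes on in DLD-1 alone 13 of 29 lie at 15 or more, against 39 of 44 of those on in HCT116 alone.

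Genes of colon differentiation were mostly higher in DLD-1. Among all coding genes, 18.9% were 2-fold or more higher in HCT116 and 17.6% higher in DLD-1. Of 20 measured colonocyte genes (40 listed), 13 were 2-fold higher in DLD-1 and 4 in HCT116, with a median log2 ratio of -2.84 against -0.02 for all coding genes. KRT20, the keratin of mature gut cells, stood at 2.94 and 105 FPKM (35.8-fold), CEACAM5, the carcinoembryonic antigen, at 0.0400 and 15.3 FPKM and EPS8L3, an actin regulator of microvilli, at 0.431 and 37.6 FPKM. Of 14 measured secretory genes (32 listed), 12 were 2-fold higher in DLD-1, including TFF1 at 0 and 38.9 FPKM and the mucins MUC13 at 0.40 and 24.6 FPKM and MUC5AC at 0.00346 and 9.34 FPKM. MUC3A, a membrane mucin, went the other way, at 20.1 and 1.29 FPKM. Members are counted where either line reaches 1 FPKM. A mostly silent list therefore shows the genes of whichever line expresses them, and its count describes those genes and not the list.

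Transcription factors of the gut showed the same side. CDX2, the master factor of intestinal identity (chromosome 13, 27962137 to 27971139), stood at 3.27 and 70.8 FPKM, a difference of 21.6-fold, against 6.04 in SW620. FOXA1, a pioneer factor of endoderm, stood at 0.805 and 63.1 FPKM, HNF4A, which drives absorptive genes, at 2.63 and 17.5 FPKM, and GATA6 at 5.59 and 25 FPKM. Of 17 measured intestinal factors 8 were 2-fold higher in DLD-1 and 2 in HCT116 (ONECUT2 at 2.95 and 0.386 FPKM and FOXA3 at 3.24 and 1.00 FPKM). HOX genes, which keep a record of position along the body axis, leaned the same way. Of 24 measured, 12 were 2-fold higher in DLD-1 and 5 in HCT116. HOXB3 stood at 4.43 and 90.9 FPKM, HOXB6 at 6.71 and 72.0 FPKM and HOXB9 at 6.23 and 107 FPKM. HOXA13, the most distal member of its cluster, stood at 3.99 and 38.2 FPKM, whereas HOXC9 stood at 2.86 and 0 FPKM.

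**Figure D3:**
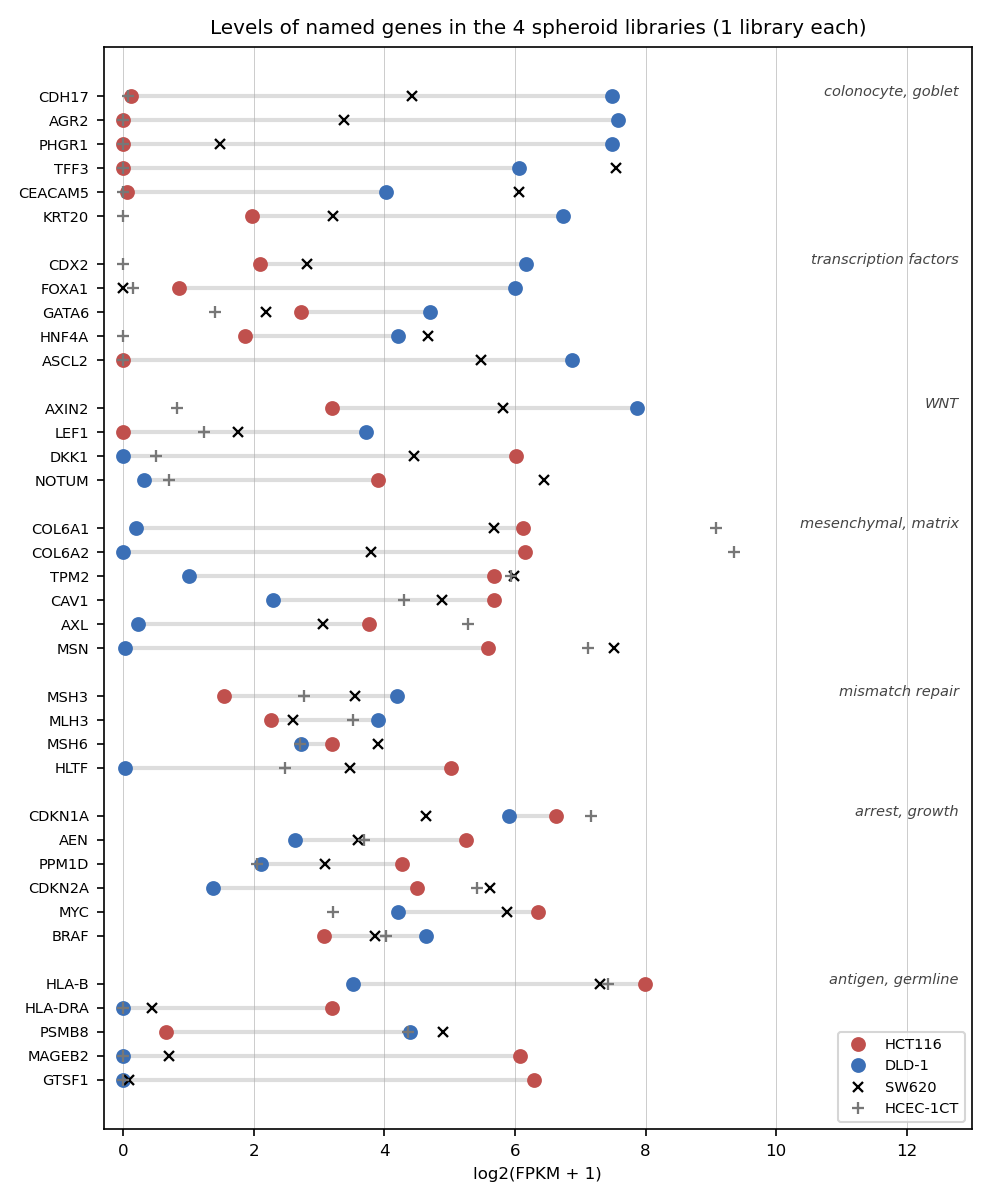
Levels of named genes, as log2(FPKM + 1), in HCT116 (red), DLD-1 (blue), SW620 (black crosses) and HCEC-1CT (grey plus signs), with 1 library per line and no error bars. Grey bars join HCT116 and DLD-1: colonocyte, goblet and transcription factor genes lie to the right in DLD-1, and the matrix genes COL6A1 and COL6A2, HLTF, HLA-B, MAGEB2 and GTSF1 lie to the right in HCT116.

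Adherens junction and desmosome genes leaned to DLD-1. CDH1 differed 6.95-fold, the desmosomal cadherin DSC2 9.53-fold (7.48 and 71.3 FPKM) and PERP, a desmosome protein, 6.44-fold (130.2 and 838 FPKM). Of 22 measured adherens junction and desmosome genes 13 were 2-fold higher in DLD-1 and 3 in HCT116, among them P-cadherin, CDH3, at 45.6 and 11.2 FPKM, and DSC3 at 3.23 and 0.0307 FPKM. Of the 6 simple keratins 4 were 2-fold higher in DLD-1, and KRT23, at 17.3 and 0.786 FPKM, was higher in HCT116. Tight junction genes differed less, with 7 of 22 higher in DLD-1 and 3 in HCT116. CLDN4, a sealing claudin, stood at 20.3 and 284 FPKM, and LSR, a protein of tricellular junctions, at 151 and 36 FPKM. Epithelial splicing factors, GRHL and OVOL factors and transcription factors of epithelial to mesenchymal transition were counted as a mixed list. Of its 13 measured members 8 were 2-fold higher in DLD-1 and 3 in HCT116, a tally that does not separate these kinds. EHF stood at 3.51 and 75.4 FPKM, GRHL3 at 3.44 and 61.9 FPKM, and ESRP2, an epithelial splicing regulator, at 7.80 and 30.3 FPKM, while the related ESRP1 was higher in HCT116, at 44.7 and 22.1 FPKM. SNAI1, a repressor of E-cadherin, stood at 12.5 and 1.89 FPKM.

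The HCT116 side held most mesenchymal and matrix genes. Of 16 measured mesenchymal genes (24 listed) 12 were 2-fold higher in HCT116 and 1 in DLD-1, with a median of 2.79. TPM2, a tropomyosin, stood at 50.4 and 1.01 FPKM, CALD1, which binds it on actin, at 25.4 and 1.31 FPKM, caveolin CAV1 at 50 and 3.90 FPKM and the receptor kinase AXL at 12.5 and 0.164 FPKM. The YAP target CTGF stood at 12 and 0.256 FPKM and CYR61 at 27.8 and 2.04 FPKM. Vimentin, VIM, the common marker of mesenchymal cells, was near 1 FPKM in both, at 1.16 and 0.858 FPKM, and TGFBI, a matrix protein induced by TGF-beta, was the exception, at 0.564 and 33.7 FPKM. Of 20 measured collagens 14 were 2-fold higher in HCT116 and 4 in DLD-1. Beside the collagen VI chains, COL12A1 stood at 14.6 and 0.00358 FPKM, COL18A1, the source of endostatin, at 35.7 and 1.11 FPKM and COL1A1 at 12.1 and 0.0213 FPKM, while COL17A1, a collagen of hemidesmosomes, stood at 2.04 and 20.4 FPKM. HCEC-1CT held 655 FPKM of COL6A2 and 104 of COL1A1, far above either line. The summed fibroblast markers moved with these genes, but COL1A1 counts in both, at 12.1 of the 28.7 FPKM summed in HCT116. The part of the fibroblast markers in the result was not tested. Moesin, MSN, which ties actin to the membrane, stood at 47.0 and 0.0217 FPKM, against 181 in SW620.

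WNT target genes leaned to DLD-1, though single targets went the other way. AXIN2, the feedback inhibitor induced by beta-catenin (chromosome 17, 65528563 to 65561647, ENSG00000168646), stood at 8.16 and 234 FPKM, a difference of 28.7-fold, with 55.4 in SW620. LEF1, a partner of beta-catenin on DNA, stood at 0 and 12.2 FPKM, LGR5, the R-spondin receptor of crypt stem cells, at 0 and 3.41 FPKM, RNF43, a ligase that removes WNT receptors, at 15.8 and 56.9 FPKM and cyclin D1, CCND1, at 53.4 and 125 FPKM. Of 31 measured target genes 16 (51.6%) were 2-fold higher in DLD-1 and 6 (19.4%) in HCT116, with a median of -1.07. Among all coding genes 17.6% were 2-fold higher in DLD-1 and 18.9% in HCT116. The 6 were the secreted antagonists DKK1 and NOTUM (13.9 and 0.243 FPKM), MYC (80.8 and 17.5 FPKM), PROM1 (5.78 and 0.0784 FPKM), the adrenergic receptor ADRA2C (12.3 and 1.66 FPKM) and BAMBI (19.1 and 7.15 FPKM), which blocks TGF-beta family receptors. AXIN2 and MYC, both taken as beta-catenin targets, thus differed in opposite directions.

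WNT ligands and receptors leaned to HCT116, with 12 of 27 measured 2-fold higher there and 4 in DLD-1. WNT16 stood at 29.9 and 0.150 FPKM, WNT9A at 5.21 and 0.0375 FPKM, WNT7B at 17.8 and 4.03 FPKM and the receptor FZD2 at 11.2 and 2.85 FPKM. The median of this list was 0.36 and came to 0.04 on the TPM scale. The destruction complex and its partners differed little, with 3 of 18 members 2-fold apart. CTNNB1, beta-catenin itself, stood at 50.8 and 111 FPKM and TCF7L1, a repressing partner, at 9.69 and 0.404 FPKM.

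Of the mismatch repair genes, MSH6 (chromosome 2, 47695530 to 47810101, ENSG00000116062), the gene known as lost in DLD-1, stood at 8.16 and 5.61 FPKM, so its mRNA was present in DLD-1 at a level within 2-fold of HCT116. MSH3, which recognises larger loops, stood at 1.92 and 17.3 FPKM, a difference of 9.03-fold. MLH3 stood at 3.82 and 13.9 FPKM, PMS2, an endonuclease, at 8.42 and 11.4 FPKM, PMS1 at 14.2 and 8.20 FPKM and the exonuclease EXO1 at 4.0 and 9.19 FPKM. The meiotic gene MSH4 stood at 0.483 and 2.26 FPKM and its partner MSH5 at 11.4 and 22.1 FPKM, the sliding clamp PCNA at 75.1 and 129 FPKM, its loader RFC1 at 25.2 and 21.0 FPKM, the ligase LIG1 at 6.91 and 12.1 FPKM and the polymerase subunit POLD1 at 18.8 and 18.5 FPKM. HLTF, a translocase that acts at stalled forks, was counted in the same list though it is not itself a mismatch repair gene. HLTF (chromosome 3, 149030127 to 149086554, ENSG00000071794) stood at 31.5 and 0.0157 FPKM, with 10.1 in SW620 and 4.57 in HCEC-1CT. In all, 6 of the 15 listed genes were 2-fold higher in DLD-1, and HLTF was the only 1 that was 2-fold higher in HCT116. A mRNA level does not show whether protein is made.

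Genes with coding microsatellites, where mismatch-repair deficient colorectal cancers are known to collect frameshifts, leaned to DLD-1. Of 34 measured, 12 were 2-fold higher there and 2 in HCT116 (18 and 1 on the TPM scale). AXIN2, CDX2, MSH3 and RNF43, given above, are among the 12, as are MARCKS, a substrate of protein kinase C, at 23.3 and 102 FPKM, and ACVR2A, an activin receptor, at 3.08 and 12.2 FPKM. TGFBR2, the TGF-beta receptor with a well-known repeat, stood at 12.2 and 25.6 FPKM. B2M, the light chain of MHC class I, was higher in HCT116, at 146 and 44.1 FPKM, as was BAX, which promotes apoptosis, at 33.5 and 16 FPKM. Other DNA repair genes differed less, with 10 of 50 (20%) 2-fold higher in DLD-1 and 4 (8%) in HCT116. Among all coding genes these shares were 17.6% and 18.9%. On the TPM scale the repair counts became 18 and 2. ERCC1, an excision nuclease, stood at 34.0 and 8.79 FPKM and the checkpoint kinase CHEK1 at 5.58 and 20.4 FPKM.

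Of 42 colorectal cancer drivers, 13 were 2-fold higher in DLD-1 and 8 in HCT116 (19 and 6 on the TPM scale). BRAF, a kinase of the ERK pathway, stood at 7.44 and 24.0 FPKM, a difference of 3.23-fold, and NRAS at 24.8 and 37.6 FPKM. APC stood at 9.61 and 8.64 FPKM, PIK3CA at 4.77 and 8.46 FPKM, SMAD4 at 30.9 and 43.8 FPKM, SMAD2 at 12.7 and 28.4 FPKM and FBXW7, a ubiquitin ligase for MYC, at 17.1 and 9.89 FPKM. Apart from BRAF and SMAD2, these lay within 2-fold on the scale of FPKM plus 1. MYC stood at 80.8 and 17.5 FPKM (4.61-fold higher in HCT116), SMAD3 at 57.8 and 13.8 FPKM, IGF2, a growth factor, at 21.2 and 4.02 FPKM and CDKN2A, the locus of p16 and ARF, at 21.7 and 1.59 FPKM. ERBB2 and ERBB3 are receptors that signal as a pair. ERBB2 stood at 16.5 and 93.0 FPKM and ERBB3 at 7.65 and 88.5 FPKM, whereas EGFR stood at 38.9 and 17.1 FPKM and MET, the HGF receptor, at 65.1 and 44.0 FPKM. Among the drivers not named so far, TCF7L2, AMER1, SOX9, FAT1, KMT2C, KMT2D, POLE, EP300, CREBBP, ARID1A and ARID2 lay within 2-fold. CASP8 stood at 8.01 and 20.2 FPKM, NOTCH1 at 17.7 and 6.44 FPKM, CDKN1B, a CDK inhibitor, at 16.7 and 48.5 FPKM and the giant cadherin FAT4 at 3.42 and 0 FPKM.

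Genes induced by ERK signalling were higher in HCT116 for 13 of 31 and in DLD-1 for 4, with a median of 0.76 (0.49 on the TPM scale, with 12 and 7). The feedback phosphatase DUSP4 stood at 90.6 and 2.68 FPKM and DUSP5 at 337 and 48.9 FPKM, and the transcription factors FOSL1 at 22.0 and 4.66 FPKM and ETV5 at 31.1 and 8.56 FPKM. Among growth factors and receptors, 16 of 43 were 2-fold higher in HCT116 and 12 in DLD-1 (14 and 15 on the TPM scale). FGFR4 stood at 40.3 and 1.74 FPKM and its ligand FGF19 at 11.7 and 0 FPKM, while the receptor KIT stood at 0.0455 and 23.5 FPKM and MST1R at 10.1 and 61.1 FPKM.

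**Figure D4:**
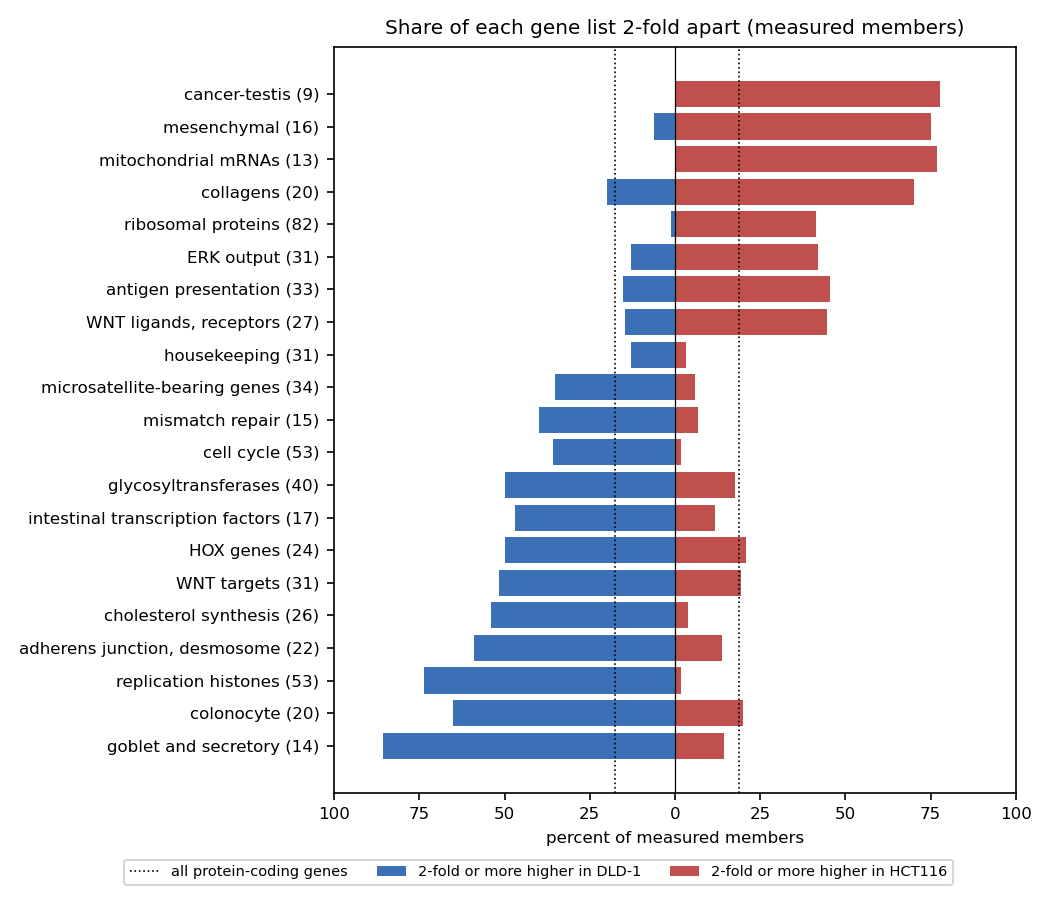
Share of the measured members of each gene list (number in brackets) that were 2-fold or more higher in HCT116 (right, red) or in DLD-1 (left, blue), ordered by the list's median log2 ratio; dotted lines mark the shares of all protein-coding genes, 18.9% and 17.6%. Secretory, colonocyte and histone lists extend far to the DLD-1 side, and cancer-testis, mesenchymal, mitochondrial and collagen lists to the HCT116 side. Of the 9 measured cancer-testis genes 6 were listed at 0 in DLD-1 and so were counted through HCT116 alone.

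Genes that act in growth arrest, apoptosis and the response to DNA damage are given one by one. Some were chosen for a large ratio, so those named give no tally of such genes. AEN, an apoptosis-enhancing nuclease, stood at 36.9 and 5.21 FPKM, PLK3, a stress kinase, at 27.5 and 4.71 FPKM, PHLDA3, which inhibits AKT, at 9.01 and 1.14 FPKM and PPM1D, a phosphatase of the damage response, at 18.4 and 3.31 FPKM. The apoptosis gene PMAIP1 stood at 30.3 and 6.90 FPKM and BAX at 33.5 and 16 FPKM, FDXR, a mitochondrial reductase, at 19.1 and 5.23 FPKM and ZMAT3, a regulator of splicing, at 11.7 and 3.81 FPKM. Some of the best known genes of this kind differed less. CDKN1A, the CDK inhibitor p21, stood at 97.5 and 59.3 FPKM, MDM2, a ubiquitin ligase, at 13.1 and 11.4 FPKM, GDF15, a stress cytokine, at 147 and 195 FPKM, BBC3, or PUMA, at 26.0 and 29.9 FPKM and the death receptor TNFRSF10B at 42.6 and 36.6 FPKM and FAS at 5.04 and 4.14 FPKM. SW620 held 23.9 FPKM of CDKN1A and HCEC-1CT 142. ACER2, a ceramidase, at 2.40 and 78.3 FPKM, and TP53I3, an oxidoreductase, at 3.37 and 11.9 FPKM, were higher in DLD-1. KITLG, the ligand of KIT, was higher in HCT116, at 80.5 and 4.82 FPKM, as was the sulfatase SULF2, at 12.1 and 0.0174 FPKM.

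Antigen presentation genes leaned to HCT116, with 15 of 33 measured (45.5%) 2-fold higher there and 5 (15.2%) in DLD-1. Among all coding genes these shares were 18.9% and 17.6%. The list's median was 0.75 (0.39 on the TPM scale). But 6 of the 33 were listed at 0 in DLD-1, so they passed the filter through HCT116 alone and their direction was set by it. HLA-B, a class I heavy chain (chromosome 6, 31269491 to 31357188, ENSG00000234745), stood at 253 and 10.5 FPKM, a difference of 24.2-fold, while HLA-C stood at 180.4 and 58.7 FPKM. Class I genes are alike in sequence, and the handling of fragments shared among them was not recorded in the labels. Class II genes, which epithelial cells usually keep low, reached a few FPKM in HCT116 alone. HLA-DRA stood at 8.16 and 0 FPKM, HLA-DRB1 at 6.93 and 0 FPKM, HLA-DQB1 at 5.73 and 0 FPKM and HLA-DPA1 at 4.23 and 0 FPKM, with the class II activator CIITA at 1.28 and 0.237 FPKM. The leukocyte marker PTPRC stood at 0.0146 and 0 FPKM and CD3E at 0.0598 and 0 FPKM. Some processing genes lay on the other side: PSMB8, an immunoproteasome subunit, stood at 0.572 and 19.9 FPKM, and ERAP2, which trims peptides, at 0.140 and 22.3 FPKM. Of the ligands of the natural killer receptor NKG2D, MICA stood at 24.2 and 6.20 FPKM, MICB at 20.7 and 3.67 FPKM and ULBP2 at 16.3 and 2.44 FPKM. Interferon-stimulated genes were mixed, 11 of 43 higher in HCT116 and 10 in DLD-1 (7 and 14 on the TPM scale). OAS1, a sensor of double-stranded RNA, stood at 0.636 and 51.5 FPKM and the related OAS3 at 4.36 and 33.3 FPKM, while IFI6 stood at 47.4 and 7.04 FPKM and IFITM3 at 217 and 57.2 FPKM.

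Cancer-testis genes were mostly silent: 9 of 57 reached 1 FPKM in either line. Of these 9, 6 were listed at 0 in DLD-1, so they passed the filter through HCT116 alone and their direction was set by it. All 7 that were 2-fold apart were higher in HCT116. Beside GTSF1 and MAGEB2 these were MAGEA3 at 18.2 and 0 FPKM, PRAME at 17.1 and 0 FPKM, MAGEA2 at 13.6 and 0 FPKM, MAGEB1 at 10.4 and 0 FPKM and TEX19 at 12.1 and 0.0885 FPKM, and none reached 2 FPKM in SW620. MAGEA genes have near-identical copies, and the split among them is uncertain.

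Proliferation genes lay on the DLD-1 side by modest amounts. Of 53 measured cell cycle genes 19 were 2-fold higher in DLD-1 and 1, CDK6 (22.0 and 9.46 FPKM), in HCT116, with a median of -0.82. On the TPM scale 32 were 2-fold higher in DLD-1 and 0 in HCT116, with a median of -1.16. TYMS, the thymidylate synthase that fluorouracil inhibits, stood at 14.5 and 65.9 FPKM (4.54-fold), RRM2, a subunit of ribonucleotide reductase, at 12.2 and 48.3 FPKM and TOP2A, a topoisomerase of dividing cells, at 13.2 and 48.4 FPKM. MKI67, the proliferation marker Ki-67, stood at 13.2 and 18.9 FPKM. Histone genes that are used in DNA replication differed more. Of 53 measured, 39 were 2-fold higher in DLD-1 and 1, HIST3H2A (31.2 and 11.3 FPKM), in HCT116, with a median of -2.06. HIST1H4H stood at 14.7 and 228 FPKM, HIST1H3D at 19.5 and 291 FPKM, HIST1H3B at 126 and 434 FPKM and HIST1H1C at 336 and 531 FPKM. Most mRNAs of these genes lack a poly(A) tail, the labels do not state how RNA was selected, and the genes are short and alike in sequence.

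Genes of sterol synthesis and uptake were higher in DLD-1. Of 26 measured, 14 were 2-fold higher in DLD-1 and 1 in HCT116, with a median of -1.21. HMGCS1, which makes HMG-CoA (chromosome 5, 43289395 to 43313512), stood at 17.5 and 217 FPKM, a difference of 12.4-fold, and LSS, the lanosterol synthase, at 12.6 and 73.9 FPKM. INSIG1, which retains SREBP in the endoplasmic reticulum, stood at 20 and 144 FPKM and MSMO1, a sterol oxidase, at 48.1 and 297 FPKM. Lipid genes outside this pathway split. SCD, the desaturase of stearate, stood at 113 and 1029 FPKM and ACSS2, which activates acetate, at 13.4 and 158 FPKM, while FADS1, a desaturase of polyunsaturated fatty acids, stood at 11.2 and 0.808 FPKM, the droplet coat protein PLIN2 at 10.5 and 0.665 FPKM and ELOVL5 at 70.5 and 0 FPKM.

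Hypoxia and glycolysis genes leaned to DLD-1 with exceptions. Of 28 hypoxia genes 9 were 2-fold higher in DLD-1 and 3 in HCT116. VEGFA, the vascular growth factor, stood at 34.3 and 166 FPKM and EGLN3, a HIF hydroxylase, at 6.84 and 91.2 FPKM. PDK1, a kinase that inhibits pyruvate dehydrogenase, stood at 6.31 and 34.1 FPKM. BNIP3, a mitophagy receptor induced by HIF, was near 0 in DLD-1, at 17.1 and 0.0512 FPKM, while the related BNIP3L stood at 50.5 and 197 FPKM. STC2, a secreted glycoprotein, was listed at 26.4 and 0 FPKM, and this 0 can be a failed estimate. CA9, a carbonic anhydrase, stood at 4.27 and 0.823 FPKM. Of 37 glycolysis and pentose phosphate genes 10 were 2-fold higher in DLD-1, such as PGK1 at 80.6 and 243 FPKM, and only SLC2A3, a glucose transporter, was 2-fold higher in HCT116, at 19.4 and 0.819 FPKM. SLC2A1, the main glucose transporter, stood at 179 and 489 FPKM.

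Glycosyltransferases leaned to DLD-1, with 20 of 40 measured (50%) 2-fold higher there and 7 (17.5%) in HCT116. Among all coding genes these shares were 17.6% and 18.9%. FUT3, which builds Lewis antigens, stood at 0.615 and 22.2 FPKM, ABO, the blood group transferase, at 0.0497 and 5.44 FPKM and ST3GAL4 at 11.9 and 96.1 FPKM. ST6GAL1, which adds sialic acid to N-glycans, stood at 8.20 and 0.181 FPKM and ST3GAL1 at 13.4 and 1.75 FPKM. Genes of drug and vitamin metabolism leaned the same way, with single members on each side. ALDH3A1 stood at 0.216 and 44.6 FPKM, CYP2J2 at 0.525 and 28.7 FPKM and the glucuronosyltransferase UGT1A6 at 0.0159 and 14.5 FPKM, whereas CYP24A1, which breaks down vitamin D, stood at 29.3 and 0.0989 FPKM. In all, 16 of 39 such genes (41.0%) were 2-fold higher in DLD-1 and 6 (15.4%) in HCT116. TYMP, which activates fluoropyrimidines, stood at 8.77 and 0.365 FPKM.

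Transcripts of the mitochondrial genome were higher in HCT116 for 10 of 13 mRNAs and for 0 in DLD-1, with a median of 2.20. MT-CO2, a subunit of complex IV, stood at 12397 and 1171 FPKM, MT-CYB, of complex III, at 3282 and 639 FPKM and MT-CO1 at 9199.9 and 6029.6 FPKM. MT-ND4 stood at 8027 and 99.5 FPKM, but its interval in the table, MT 5904 to 15887, spans most of the genome's other genes, so the share given to each gene is uncertain. Cytosolic ribosomal protein genes were also higher in HCT116, 34 of 82 by 2-fold against 1, with a median of 0.85. RPL37A stood at 432 and 52.0 FPKM, RPL14 at 394 and 53.5 FPKM and RPL36 at 284 and 48.3 FPKM. Processed copies of these genes abound in the genome and can take fragments. The median log2 ratio of coding genes ran from 0.26 for transcripts under 1 kb to -0.29 for those over 6 kb, and from -0.37 below 40% GC to 0.26 above 60% GC. After each ratio was centred on coding genes of like GC and length, a step chosen after seeing the data, ribosomal protein genes kept a median of 0.71, with 32 and 1 members 2-fold apart. The lists of histones and sterol genes had medians of -2.33 and -1.32, and of all coding genes 18.8% were then 2-fold higher in HCT116 and 16.2% in DLD-1.

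Large families defined by name alone are read beside all 16718 genes, of which 18.3% were 2-fold higher in HCT116 and 20.1% in DLD-1. Of 405 measured ZNF genes 51 were higher in HCT116 and 61 in DLD-1, with a median of -0.09 that turned to 0.06 (61 and 50 members) after centring on GC and length. ZNF703, a transcriptional repressor, stood at 7.25 and 97.6 FPKM. Of 246 solute carriers 45 and 52 were 2-fold apart. SLC44A4, which carries choline, stood at 0 and 60.6 FPKM, and SLC22A31 at 24.9 and 0.0224 FPKM. Potassium channel genes included several that were listed at 0 in 1 line: KCNG1 stood at 13.1 and 0 FPKM, KCNE3, a regulator of intestinal potassium channels, at 0 and 16.2 FPKM and KCNV1 at 0 and 12.3 FPKM. Of 157 LINC genes 34 were higher in HCT116 and 49 in DLD-1. Both sides held members near 0 in the other line, such as LINC01234 at 13.1 and 0 FPKM and LINC02086 at 0.235 and 28.5 FPKM.

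By chromosome, medians over genes at 1 FPKM or more in both lines lay between -0.30 on chromosome 2 (802 genes) and 0.29 on chromosome 19 (829 genes) outside the mitochondrial genome. Chromosome 13 had -0.29, chromosome 18 -0.21 and chromosome 8 0.14. After centring on GC and length, chromosome 19 had 0.18, chromosome 2 -0.20, chromosome 8 0.19, chromosome 13 -0.15 and chromosome 18 -0.13. All of these are small beside the interquartile range within a chromosome, -0.28 to 0.93 on chromosome 19. Copy number was not measured.

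Main transcripts differed often but seldom fully. In 7571 genes that have several transcripts and reach a summed level of 5 FPKM in both lines, the most abundant transcript differed in 2214 (29.2%). A switch, in which the main transcript of either line was lower in the other by 50 points or more as a percent of the gene's sum, was counted in 599 (7.91%). Of these, 390 were between coding transcripts, and 82 of those pairs differed by at most 100 bases in length. SW620 lay nearer HCT116 in 350 of the 599. FPKM per transcript are estimates that split shared fragments, and short transcripts can take large values.

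Among the 8 genes with the largest loss, TP53INP2, an autophagy protein, used TP53INP2-201 for 94.5% of its level in HCT116 and 0% in DLD-1, where TP53INP2-202 held 100%. DUSP14, a phosphatase, used DUSP14-206 for 96.6% in HCT116 and DUSP14-205 for 100% in DLD-1. BLVRA, which makes bilirubin, used BLVRA-201 for 98.1% and BLVRA-202 for 97.8%. In each of these the lines thus used different coding transcripts almost entirely. SOS2 was listed at 542 and 11.3 FPKM, but 99.2% of the HCT116 value was a transcript that the table names as antisense to SOS2, while SOS2-201 held 72.7% in DLD-1. HSPE1-MOB4, a read-through gene, the non-coding AP000317.2, the histone HIST2H4B and the small nucleolar RNA SNORD3A were the other 4.

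Of 58 genes with well-known isoforms, 45 could be compared and 5 switched. SRSF1, a splicing factor that limits its own level, used SRSF1-204, a transcript marked for nonsense-mediated decay, for 67.9% in HCT116 and 16.4% in DLD-1, where the coding SRSF1-205 held 55.8%. APC used APC-205, a decay transcript of 573 bases, for 36% in HCT116 and 20.2% in DLD-1, and the coding APC-201 for 61.5% in DLD-1 and 3.85% in HCT116. TPM1, a tropomyosin, used TPM1-208 for 43.5% in HCT116 and TPM1-206 for 54.0% in DLD-1. MBNL1, a splicing regulator, used MBNL1-204 for 44.8% and MBNL1-218 for 56.1%. AXIN2 used AXIN2-201 for 55.3% and AXIN2-209 for 62.8%, with a loss just past the limit.

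**Figure D5:**
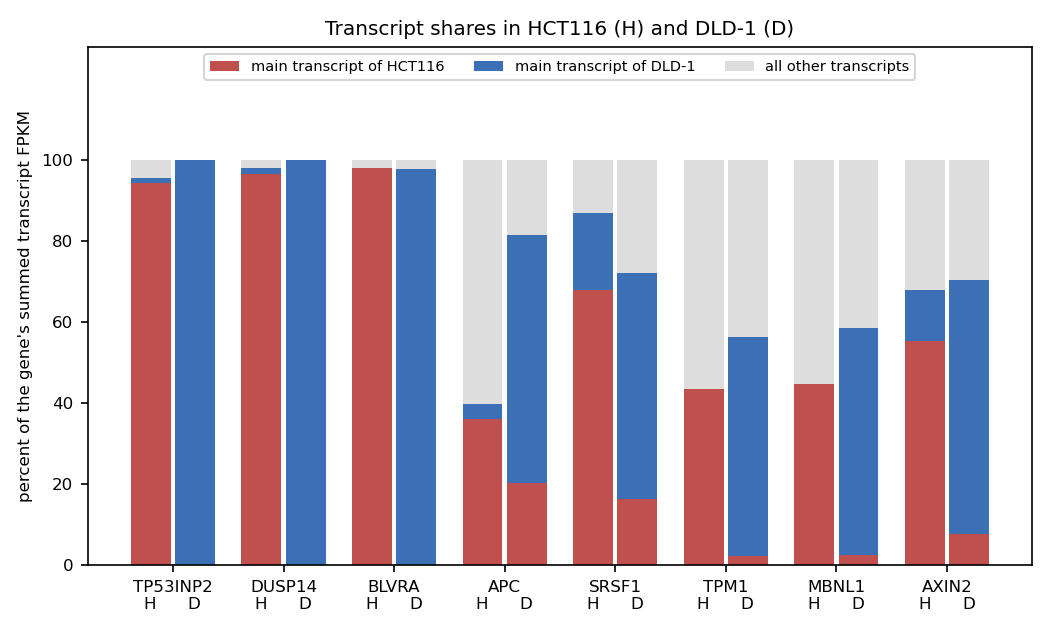
Percent of each gene's summed transcript FPKM held by the main transcript of HCT116 (red), the main transcript of DLD-1 (blue) and all other transcripts (grey), with HCT116 on the left (H) and DLD-1 on the right (D) of each pair. TP53INP2, DUSP14 and BLVRA change almost fully, while in the other 5 genes further transcripts hold more of the sum.

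Transcripts marked as retained introns held more in DLD-1. Their share of the summed FPKM of nuclear coding genes was 9.22% in HCT116 and 12.5% in DLD-1, against 8.27% in SW620 and 9.88% in HCEC-1CT. Across 7330 coding genes the median share was 3.13% and 6.27%, and it was higher in DLD-1 in 3578 genes and in HCT116 in 1291. A share higher by 20 points or more was seen in DLD-1 for 443 genes and in HCT116 for 108. Decay transcripts showed no such lean, with 172 genes at 20 points or more higher in HCT116 and 154 in DLD-1. The part of this difference in the counts of transcript switches was not tested.

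The other libraries were set beside the genes that lay 4-fold apart. For the 921 genes higher in HCT116, SW620 lay nearer HCT116 in 424 and nearer DLD-1 in 497. For the 843 higher in DLD-1 it lay nearer DLD-1 in 269 and nearer HCT116 in 574. HCEC-1CT lay nearer HCT116 in 295 of the 921 and nearer DLD-1 in 195 of the 843. SW620 thus sided with the higher line for 46.0% of the genes high in HCT116 and for 31.9% of those high in DLD-1, and HCEC-1CT for 32.0% and 23.1%. These shares have no test.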

How the data were processed

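RNA of 4 spheroid libraries was used, of which HCT116 and DLD-1 were compared. The authors deposited FPKM values for 58740 genes and, separately, for 207345 transcripts. The submitters' processing notes name FastQC, HISAT2 and build hg38, without versions or roles. The sources used here do not give the program behind the FPKM values, its annotation, the RNA selection or the strand. Of the value columns, 1 per file could be tied to no sample and was left aside. Gene types and lengths were taken from GENCODE 29, which matched 58275 genes (96.7% with the same coordinates), and promoters from RefSeq (GRCh38.p14).

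Ratios are log2 of FPKM plus 1, HCT116 over DLD-1, for genes at 1 FPKM or more in either line, computed in Python 3.11.15 with pandas 2.3.3 and tested on simulated data. Depth was read from steps in low values of genes with a single transcript. With 1 library per line no test was possible. Differences were counted at 4-fold for genes and 2-fold in 57 lists of 1998 entries, 3 of which matched no gene, and 27 families.

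The members and lists were chosen with earlier results of these data known. Named were the 15 coding and 5 other genes per direction with the largest ratio and 10 FPKM or more, up to 6 members per list with the largest ratio or listed at 0 in 1 line, the driver, mismatch repair and damage response genes, the 8 largest transcript losses and the fixed isoform genes that switched. Further genes were named after their values were seen: VIM, CA9, SLC2A1, MKI67, TFF1 and other well-known members. Unannotated loci among the leading genes are not described. Some genes and lists covered by this rule are not reported here.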

Additional observations from a re-analysis of the deposited data

How the results depend on the processing

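No paired analysis was possible because each line has 1 library, and for the same reason no library could be left out. The pseudocount and the fold limit moved the gene counts most. Against 921 and 843 genes 4-fold higher in HCT116 and in DLD-1, a pseudocount of 0.1 gave 1911 and 2074, a pseudocount of 5 gave 215 and 282, a limit of 2-fold 3054 and 3364, and a limit of 8-fold 297 and 288. Of 57 lists, 7 had a median of 1 or more and 10 a median of -1 or less, and with a pseudocount of 5 these were 3 and 5. With that pseudocount 180 list members were 2-fold higher in HCT116, against 311. The 599 transcript switches among 7571 genes became 385 among 4917 at 10 FPKM or more in both lines and 1330 with a limit of 30 points. Under the other scalings, filters and the GC and length centring, all these counts stayed within 1.5 times. No list median of 0.5 or more in size, and none of the single-gene ratios that were recomputed, changed sign under the settings run for it. This was largely fixed in advance and does not measure robustness. A pseudocount added to both values cannot flip a ratio, and the largest scaling shifts log2 FPKM by only -0.37. Single genes were not recomputed on the TPM scale. Lists nearer 0 (ABC transporters, CDK inhibitors, integrins and laminins, iron genes, NF-kB targets, WNT core and housekeeping genes) did change sign, each on the TPM scale. Low values rest on few fragments, about 2 for SELENBP1 and 3.3 for S100P in HCT116 and 2.9 for NPW in DLD-1, and the lack of a second library limits every statement.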

Other observations

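Further gene groups differed in single members more than as groups. Neural and endocrine genes were mostly silent, with 6 of 20 at 1 FPKM or more, and the granule proteins SCG2 and SCG5 lay on opposite sides, at 12.2 and 0.0665 FPKM and at 0.264 and 21.4 FPKM. Among surface markers used for colon stem and carcinoma cells, CD24 stood at 22.0 and 259 FPKM and the integrin ITGA6 at 23.5 and 85.2 FPKM, both higher in DLD-1, while MSI1, a translational regulator, stood at 14.6 and 0.0550 FPKM. Of the BMP and TGF-beta genes, 11 of 39 were 2-fold higher in each line (9 and 16 on the TPM scale). BMP2 stood at 0 and 8.73 FPKM, its antagonist CHRD at 10.5 and 0.213 FPKM, the target ID2 at 28.2 and 121 FPKM and TGFB1 at 61.7 and 14.9 FPKM. Death and caspase genes leaned to DLD-1, 11 of 39 against 5, with the inflammatory caspase CASP4 at 0.713 and 23.1 FPKM and CFLAR, which holds caspase 8 in check, at 4.61 and 30.6 FPKM. GSDME, a pore-forming gasdermin, stood at 4.46 and 0.108 FPKM.

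Stress genes of the unfolded protein and ATF4 responses had 9 of 30 members 2-fold higher in HCT116 and 3 in DLD-1, with a median of 0.47. On the TPM scale these were 7 and 4, with a median of 0.11. ATF3 stood at 34.0 and 2.59 FPKM, DDIT3, or CHOP, at 35.5 and 7.48 FPKM and the chaperone HSPA5 at 367 and 117 FPKM, but TRIB3, a pseudokinase of the same response, stood at 14.4 and 64.7 FPKM. Iron and metallothionein genes had 5 of 22 members 2-fold higher in HCT116 and 3 in DLD-1 (2 and 7 on the TPM scale), with ferritin light chain, FTL, at 1743 and 402 FPKM and the metallothionein MT2A at 110.3 and 18.6 FPKM, while HEPH, an iron oxidase of gut cells, stood at 0.632 and 22.7 FPKM. Proteases were split, with the type 2 membrane protease TMPRSS2 at 0 and 21.7 FPKM, the kallikrein KLK10 at 4.17 and 55.3 FPKM and the cystatin CST6 at 39.2 and 0.279 FPKM. DNMT3B, a DNA methyltransferase, stood at 3.70 and 0.609 FPKM and TET2, which oxidises methylcytosine, at 3.83 and 14 FPKM. Of 38 such chromatin genes 7 were 2-fold higher in HCT116 and 4 in DLD-1, or 2 and 11 on the TPM scale. Among all protein-coding genes measured, 18.9% were 2-fold higher in HCT116 and 17.6% in DLD-1.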
